A study of Mus musculus with 18 samples.

Results

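The genes of the interferon regulatory factors Irf1, Irf2, Irf3, Irf4, Irf5, Irf7, Irf8 and Irf9 were described by the accessible chromatin around them in bone marrow-derived macrophages (BMDMs), which are macrophages grown in culture from mouse bone marrow. Every reference peak, summit and extended region of 3 deposited lists was taken that lay in the body of one of these 8 genes or within 50000 bp of its most upstream start site (GENCODE M21, mm10). The windows held 158 of 82391 reference peaks, 165 of 84660 summits and 92 of 59617 extended regions. No summit lay in more than 1 window. Peaks and regions that overlapped the edge of a window were counted, and 3 of the 92 regions (1 at Irf7 and 2 at Irf8) had no summit inside it.

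The 18 ATAC-seq libraries came from wild type BMDMs of male C57/BL6 mice and formed 9 groups of 2 libraries. ATAC-seq marks open chromatin by the insertion of adapters with the Tn5 transposase. All cells received the vehicle DMSO for 1 h and were then left untreated, stimulated with bacterial lipopolysaccharide (LPS, 10 ng/mL) or stimulated with the cytokine IL-4 (10 ng/mL), for 30 min, 1 h, 2 h or 4 h in either case. The lists are pooled over all libraries and have no column per library, so effects of stimulus and time were not analysed here, no spread between replicates could be given, and all values below describe 1 catalog without a test. A summit is the highest point called within a peak, and an extended region joins neighbouring peaks with their flanks. The score deposited for each summit has no stated scale and ran from 102 to 2781 over all summits, with a median of 737 and 219 distinct values, so that equal scores at different sites are common. It was used here only to order summits. As a check of the cell type, 10 of 10 macrophage marker genes, Spi1, Csf1r and Adgre1 among them, had a reference peak no more than 1000 bp from a start site. Such a peak was also present at 1 of 4 T cell, 2 of 4 B cell, 2 of 3 plasmacytoid dendritic cell, 1 of 4 neutrophil, 0 of 3 erythroid and 3 of 3 stromal marker genes, and at 56.5% of all protein-coding genes. The part of other cells in these peaks was not tested.

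Interferon regulatory factors are transcription factors that recognise repeats of the core GAAA through a conserved DNA-binding domain. IRF3 and IRF7 are phosphorylated after pathogen sensing and switch on type I interferon genes, and IRF9 joins STAT2 in the complex that carries the interferon signal to interferon-stimulated response elements (ISREs). IRF1 is induced by interferon gamma, IRF2 can occupy the same elements, IRF5 drives inflammatory cytokines, and IRF4 and IRF8 bind with PU.1 at composite ETS-IRF elements (EICEs) or with BATF and JUN at composite AP-1-IRF elements (AICEs).

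The sequences of 4 start sites at which a searched motif lay within 100 bp of a summit are printed from assembly GRCm38.p6 (mm10 coordinates), 5′ to 3′, with matches of the motifs searched in capitals where they lie within 100 bp of the summit (matches farther away are in lower case). They are shown because they hold interferon or STAT motifs beside a summit at a start site of the Irf gene. The Irf2 summit also lies 46 bp from an annotated start site of the gene Gm16675, nearer than that of Irf2. The sequences end before any annotated untranslated region.
Irf1 start site (chr11:53769858-53770007, + strand): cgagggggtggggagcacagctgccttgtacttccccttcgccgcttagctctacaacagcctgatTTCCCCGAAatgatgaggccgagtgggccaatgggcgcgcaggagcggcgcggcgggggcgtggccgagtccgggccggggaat
Irf2 start site (chr8:46739438-46739587, + strand): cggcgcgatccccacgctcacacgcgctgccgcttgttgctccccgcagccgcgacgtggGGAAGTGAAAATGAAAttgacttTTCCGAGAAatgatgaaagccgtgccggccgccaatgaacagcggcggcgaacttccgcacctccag
Irf8 start site (chr8:120736139-120736288, + strand): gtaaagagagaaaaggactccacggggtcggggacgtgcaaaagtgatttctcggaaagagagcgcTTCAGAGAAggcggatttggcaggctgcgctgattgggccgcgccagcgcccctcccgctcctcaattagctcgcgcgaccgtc
Irf5 inner start site (chr6:29529133-29529281, + strand): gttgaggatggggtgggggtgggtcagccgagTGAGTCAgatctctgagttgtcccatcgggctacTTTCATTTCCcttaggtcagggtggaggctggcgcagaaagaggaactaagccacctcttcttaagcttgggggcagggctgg
The capitals in the Irf1 and Irf8 sequences mark a gamma-activated site (GAS, searched as TTCNNNGAA, a STAT motif), with the letters TTCCCCGAA at Irf1 and TTCAGAGAA at Irf8. In the Irf2 sequence the first capitals are an EICE (GGAANNGAAA) and an ISRE (GAAANNGAAA) that share 4 bases, and the second are a GAS with the letters TTCCGAGAA. In the Irf5 sequence they are an AP-1 motif (TGANTCA) and an EICE on the opposite strand.

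Further sequences are shown for 6 sites away from the start sites of the Irf genes that hold a match beside a summit nearest to the gene. Of these, the Irf1 site lies within 1000 bp of the annotated start of the microRNA gene Mir7671 and is counted below among the start site summits.
Irf1 upstream site (chr11:53762970-53763119, + strand): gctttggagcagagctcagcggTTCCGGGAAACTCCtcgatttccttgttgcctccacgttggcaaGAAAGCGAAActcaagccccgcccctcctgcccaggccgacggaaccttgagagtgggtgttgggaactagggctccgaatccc
Irf7 upstream site (chr7:141268612-141268735, - strand): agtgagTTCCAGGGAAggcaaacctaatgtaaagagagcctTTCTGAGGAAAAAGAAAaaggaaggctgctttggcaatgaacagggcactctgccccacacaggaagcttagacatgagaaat
Irf2 intron site (chr8:46789531-46789680, + strand): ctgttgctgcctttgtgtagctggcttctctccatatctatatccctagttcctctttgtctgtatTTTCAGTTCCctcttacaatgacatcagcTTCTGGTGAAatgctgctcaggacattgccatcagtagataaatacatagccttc
Irf5 upstream site (chr6:29524144-29524293, + strand): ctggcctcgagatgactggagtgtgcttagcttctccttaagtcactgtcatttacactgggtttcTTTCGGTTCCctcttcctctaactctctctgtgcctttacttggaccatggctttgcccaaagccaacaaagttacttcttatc
Irf4 upstream site (chr13:30744576-30744725, + strand): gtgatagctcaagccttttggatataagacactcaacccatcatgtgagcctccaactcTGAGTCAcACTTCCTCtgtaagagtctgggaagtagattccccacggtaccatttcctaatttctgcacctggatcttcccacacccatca
Irf8 upstream site (chr8:120716126-120716275, + strand): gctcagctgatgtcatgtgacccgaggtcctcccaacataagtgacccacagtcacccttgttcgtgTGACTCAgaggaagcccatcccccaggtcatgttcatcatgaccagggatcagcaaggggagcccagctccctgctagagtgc
The capitals mark overlapping GAS and NF-kB motifs and then an ISRE at the Irf1 site. At the Irf7 site they mark a STAT6 motif (TTCNNNNGAA) and then a STAT6 motif that runs into an ISRE. The Irf2 intron site holds an EICE and a STAT6 motif, and the Irf5 upstream site an EICE, each EICE on the opposite strand. The Irf4 site holds an AP-1 motif 1 base from a PU.1 motif (GAGGAAGT, opposite strand), and the Irf8 upstream site an AP-1 motif. A match shows only that these letters are present.

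All 8 genes had a start site peak, that is, a reference peak no more than 1000 bp from an annotated start site. Over all protein-coding genes 12402 of 21938 had one (56.5%). The best start site score was 1903 at Irf5, 1825 at Irf9, 1696 at Irf1 and at Irf2, 1308 at Irf8, 1224 at Irf7, 1200 at Irf4 and 956 at Irf3. The median over all coding genes with a start site peak was 1456 (middle 50% 1071 to 1799). Thus Irf5, Irf9, Irf1 and Irf2 lay above that median, and Irf8, Irf7, Irf4 and Irf3 below it. Irf5 stood at percentile 82.0 and Irf3, the lowest, at percentile 19.2 of all start site scores. Of the 65 annotated start sites of the 8 genes, 34 (52.3%) lay inside a reference peak, against 35.1% of the start sites of all coding genes. Many of the 65 lie close together in the same peak and are not independent counts. The share over all coding genes includes those without a start site peak.

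The windows were rich in accessible regions relative to most genes, but they differed in how much of this lay near the Irf gene itself. The number of extended regions was 16 at Irf2 and Irf8, 13 at Irf1, 10 at Irf3, Irf4 and Irf7, 9 at Irf9 and 8 at Irf5, against a median of 5 (middle 50% 1 to 8) over all coding genes. These counts stood between percentiles 72.6 and 97.5. The start site of the Irf gene was the nearest coding start site for 89 of the 165 summits (53.9%). This held for all 25 summits at Irf2, 10 of 11 at Irf4, 12 of 15 at Irf5 and 18 of 25 at Irf8. It held for 14 of 39 at Irf1, 6 of 16 at Irf7, 2 of 16 at Irf3 and 2 of 18 at Irf9. At Irf1, 13 of the other summits were nearest to Gm17334, a coding gene model that starts inside the body of Irf1. For example, the summit 4871 bp inside Irf1 lay 1698 bp from that start and 1732 bp from a start site of Irf1. The Irf1 share thus depends on this gene model. Irf3 and Irf9 lie in gene-dense stretches, where start sites of 4 other coding genes at Irf3 and 8 at Irf9 had a summit within 1000 bp. By position, 67 summits lay upstream of the most upstream start site, 54 in gene bodies and 44 downstream.

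**Figure D1:**
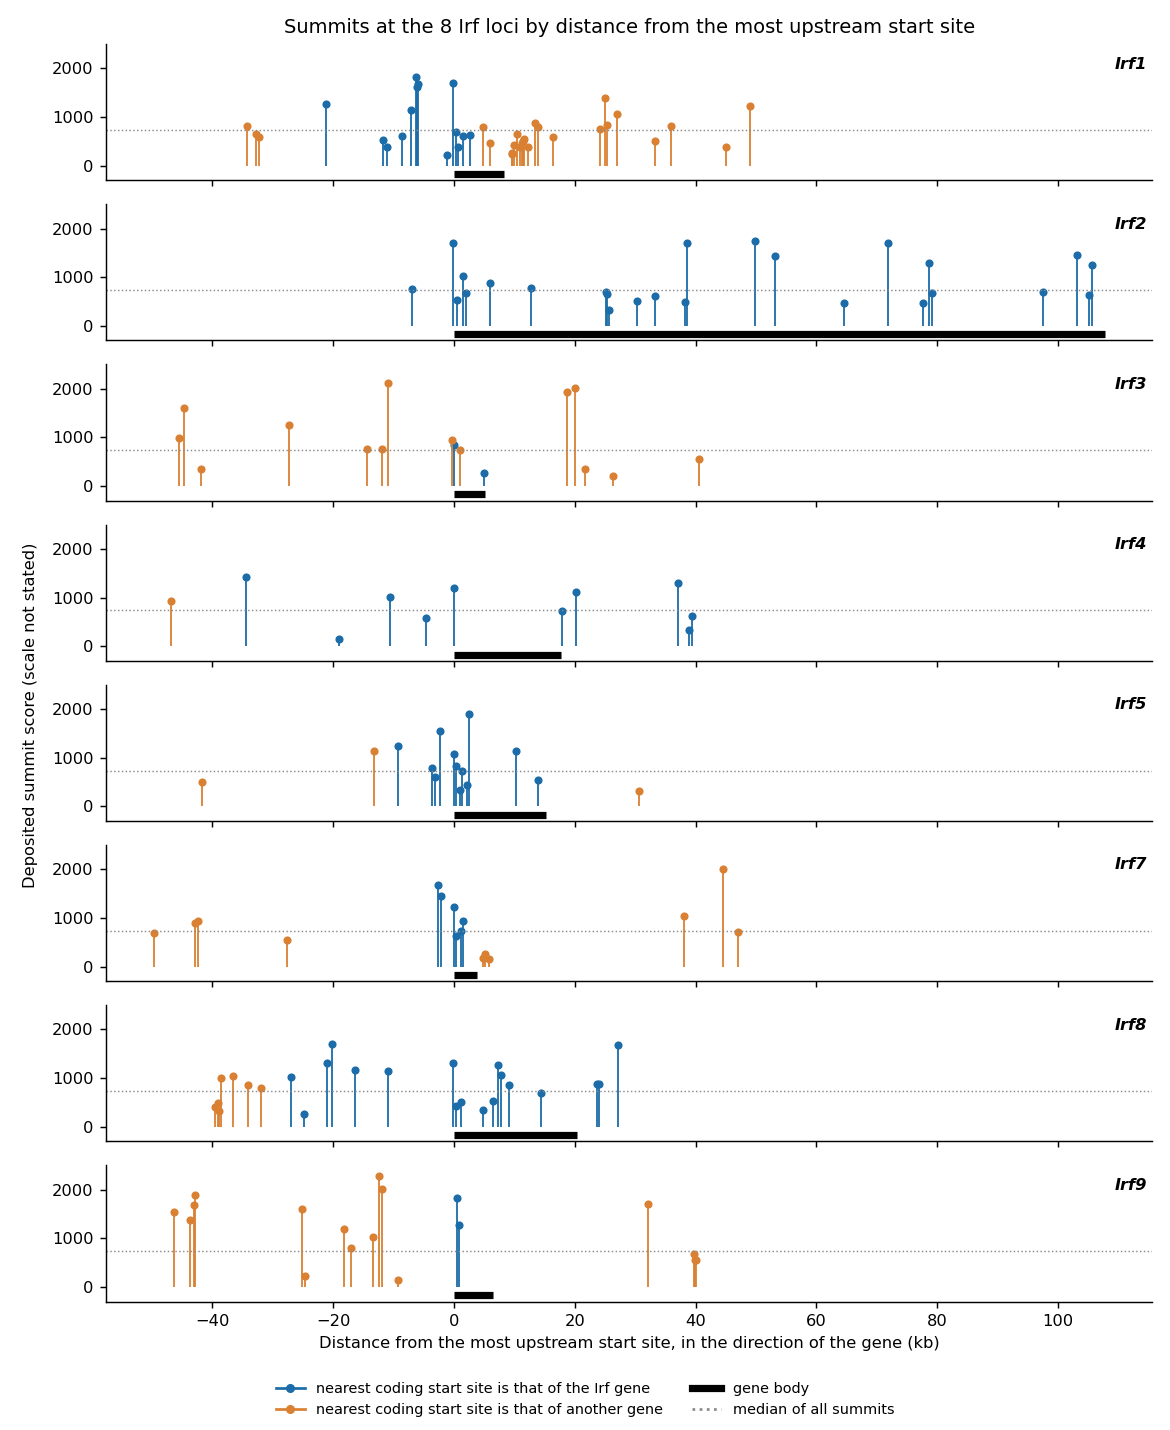
Each stem is a summit at its distance from the most upstream start site of the gene (x axis, kb, in the direction of the gene), with the deposited score as its height (y axis, scale not stated). Blue stems are nearest to a start site of the Irf gene and orange stems to that of another coding gene, the black bar is the gene body and the dotted line the median of all summits (737). All 25 stems at Irf2 are blue, while 16 of 18 at Irf9 are orange.

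The median peak width was 228.5 bp against 227 bp in the whole list. The GC content within 100 bp of a summit was 54.3% ± 8.06 (SD over 165 summits) against 51.7% ± 9.35 (SD over 84660 summits). The share of summits within 1000 bp of a start site of any gene was 40.6%, against 29.3% in the whole list. The rule centres each window on a start site, so a higher share is in part built in. The median score of the 67 summits within 1000 bp of a start site was 856, below the 990 of all such summits. The median of the other 98 was 748, above the 664 of all distal summits.

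**Figure D2:**
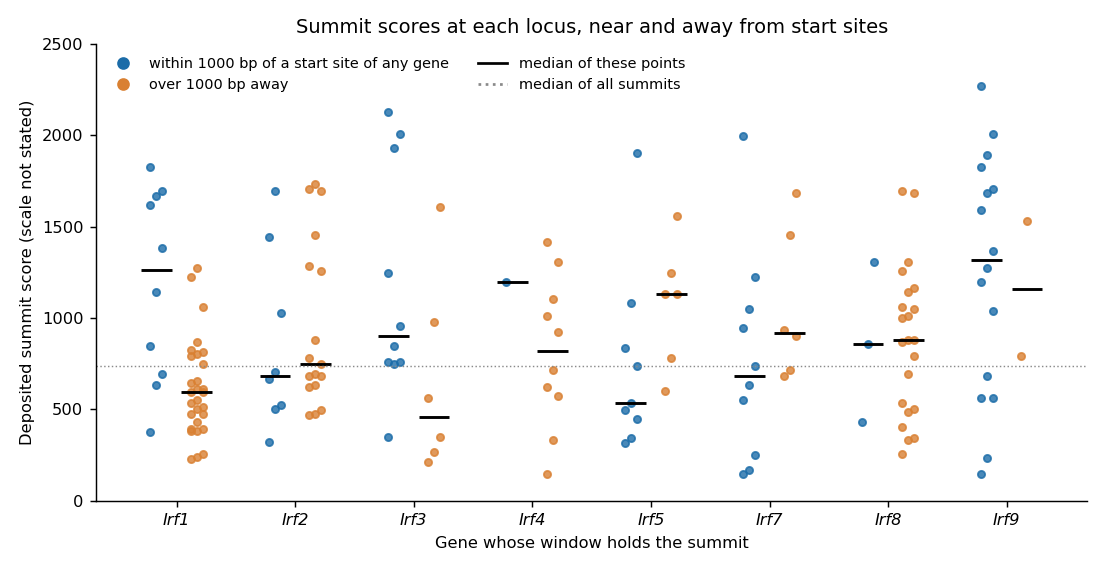
Points are the 165 summits by the gene whose window holds them (x axis) and their deposited score (y axis, scale not stated), split into those within 1000 bp of a start site of any gene (blue) and those farther away (orange), with black bars at the medians. Scores at Irf9 had the highest median over all summits (1320.5) and those at Irf1 the lowest (634), and the best summits of Irf2 and Irf8 include distal ones at 1734 and 1696.

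Irf3 encodes the factor that is present before infection and is activated by TBK1. Its start site peak, chr7:44997160-44997828, covered the divergent start sites of Irf3 and Bcl2l12, an apoptosis-related gene. It had 2 summits with scores of 956, which lay nearer to Bcl2l12, and 845, which lay 23 bp inside Irf3. Only 3 summits lay in the body of Irf3, the others scoring 748 and 266. The best scored summit of the window, 2127, lay at the start site of Prmt1, an arginine methyltransferase, 10940 bp upstream, in the widest peak of the window (758 bp). The best distal summit (1606) lay 44728 bp upstream in an intron of Tsks. The most summits in an extended region were 3, in the one around the Irf3 start site and in the one at Scaf1 and Rras. No ISRE or EICE was found within 100 bp of any of the 16 summits.

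Irf7 encodes the factor that amplifies type I interferon production. Its start site peak, chr7:141266348-141266628, had 1 summit scored 1224 that lay 2 bp inside the gene. Higher scores were found upstream. Adjacent peaks at 2174 bp and 2576 bp upstream had summits of 1456 and 1683, the second being the best distal summit of the window. The ISRE and the STAT6 motifs printed above lay within 100 bp of the first of these summits. A second ISRE lay at chr7:141266100-141266109, 33 bp from a summit of 634 in the gene. The extended region over the gene, chr7:141264223-141267328, had 4 summits. Past the 3′ end of Irf7 a peak of 866 bp, the widest of the window, lay over Phrf1 with scores of at most 250, while the best summit of the window (1995) lay 44610 bp downstream near the start of Mir210.

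Irf5 encodes a factor that promotes inflammatory cytokine genes in macrophages. Its accessible sites lay close together, with 6 summits in the extended region chr6:29525845-29530136, a number that stood at percentile 99.5 of all extended regions. The most upstream start site was covered by the peak chr6:29526545-29526808 with a score of 1082. The start site 2657 bp farther inside the gene was covered by the peak chr6:29529055-29529436 with a score of 1903, the highest of the window. Both are start sites of coding transcripts, and they differ in sequence. The RefSeq promoter of the first (250 bp before to 50 bp after the start) had a GC content of 74.7%, at percentile 96.0 of 32851 promoters, and none of the motifs searched. The sequence before the inner start site, printed above, has an AP-1 motif and an EICE, the centre of which lay 8 bp from the summit. The widest peak of the window, chr6:29524014-29524586, lay 2358 bp upstream, held the best distal summit (1556) and also had an EICE. Another EICE had its centre 1 bp from the summit at 10320 bp inside the gene (1129).

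Irf1 encodes an activator that is induced early by interferon gamma. It had the most summits, 39, which stood at percentile 99.4 of all coding genes, and the lowest median score. The start site peak chr11:53769728-53770133 had 1 summit scored 1696, and the GAS printed above lay 20 bp from it. The first RefSeq promoter of Irf1 also had an NF-kB motif. The widest peak of the window (671 bp) had 3 summits at 6317, 6061 and 6004 bp before the gene, which scored 1825, 1619 and 1670. This peak covers the annotated start of the microRNA gene Mir7671, which lies 43 bp from its best summit, and the nearest coding gene is Irf1. The neighbouring summit at 7041 bp upstream (1141) is the site printed above, the only summit of the window with an ISRE. The best distal summit (1272) lay 21194 bp upstream. The extended region past the 3′ end, chr11:53778859-53784725, had 11 summits in 8 peaks, a number at percentile 99.9 of all extended regions. Its scores were low, with 242 the lowest and 867 the highest, and 3 of its summits had a GAS within 100 bp, 2 of them sharing the same match.

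Irf2 encodes a factor that competes with IRF1 at shared elements. It is the longest of the 8 genes (107727 bp), and 23 of its 25 summits lay in the gene body. The start site peak chr8:46739346-46739859, the widest of the window at 514 bp, scored 1696. Its summit lay 171 bp upstream of Irf2 and 46 bp from a start site of Gm16675, which the peak also covers. Scores near 1696 were also reached inside the gene. The intronic summits at 38584, 49890 and 71759 bp from the start scored 1708, 1734 and 1696, and the second of these was the best of the window. Further intronic summits at 53126 and 103096 bp scored 1443 and 1456. The first of these 2 lay 641 bp from an inner start site of a coding transcript, so it counts among the start site summits. An EICE lay beside the summits at 38584, 49890, 53126 and 77682 bp and at the start site, which made up 5 of the 9 summits with this motif at all 8 genes. ISREs lay at the start site and in the last part of the gene, at chr8:46844820-46844829, beside a summit of 634. The extended region with the most summits, 4, was the one at the start site. Since the gene itself widens the window, the count of extended regions within 50000 bp of the start alone was 9, at percentile 81.6.

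Irf4 encodes a factor of lymphocytes that also acts in macrophages exposed to IL-4. It had the fewest summits, 11, and 1 of them lay in the gene, in the start site peak chr13:30749121-30749377 (score 1200). That peak covered both annotated start sites. The remaining summits lay between 46803 bp upstream and 39406 bp downstream. The best of them, 1418, lay 34416 bp upstream in the widest peak of the window (450 bp). Others scored 1013 at 10605 bp upstream, 1106 at 20188 bp and 1308 at 37109 bp downstream of the start. The extended region with the most summits, 2, lay 39406 bp downstream. No ISRE, EICE, GAS or NF-kB motif was found at the 11 summits, while 4 had an AP-1 motif and 4 a PU.1 motif, which 19.4% and 9.08% of all summits had. The site printed above has both. With 11 summits this is a description only.

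Irf8 encodes a lineage factor of monocytes and dendritic cells that pairs with PU.1. Of its 25 summits, 14 lay upstream, 8 in the gene and 3 downstream, and 22 lay over 1000 bp from any start site. The start site peak chr8:120736167-120736444 scored 1308, and the GAS printed above lay 86 bp from its summit. The best distal summits scored 1696 at 20163 bp upstream and 1683 at 27093 bp downstream of the start. Others upstream scored 1308 at 20943 bp, 1164 at 16288 bp and 1141 at 10905 bp. Higher scores than at the start site were thus seen on both sides of the gene. The start site at 9122 bp inside the gene, that of a noncoding transcript, was covered by a peak scored 856. The extended region with the most summits, chr8:120740402-120746283, had 5. An ISRE lay beside a weak summit (258) at 24847 bp upstream. The widest peak (505 bp) overlapped the edge of the window, but its summit (1838) lay 50077 bp upstream and was not counted. All 25 summits lie within introns of Gm20388, a read-through gene model.

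Irf9 encodes the DNA-binding part of the complex with STAT2. Its start site peak chr14:55603881-55604544 had 2 summits of 1825 and 1272 and missed the most upstream start site, but covered the start site 414 bp farther inside. These were the only summits nearest to Irf9. A GAS at chr14:55604124-55604132 lay 50 bp from the first summit, and a STAT6 motif lay at chr14:55603986-55603995. No ISRE was found at either summit. The best summit of the window (2271) lay 12457 bp upstream at the start site of Psme2, a proteasome activator subunit gene, and stood at percentile 99.8 of all summits. The only ISRE of the window lay at the start site of Psme1, another subunit of the same activator. The best distal summit (1531) and the widest peak (771 bp) lay near Dcaf11. The most summits in an extended region were 3, in those at Dcaf11, at Psme2 and Rnf31 and at Tm9sf1.

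Motifs of the interferon and STAT pathways were found at few summits, in shares near those of the whole list. An ISRE lay within 100 bp of 7 of the 165 summits (4.24%), against 3.64% of all summits, and in the windows of 5 of the 8 genes, that of Irf9 through the Psme1 start site alone. The share of all gene windows with an ISRE was not computed. An EICE lay at 9 summits (5.45% against 4.61%). A GAS lay at 14 (8.48% against 6.35%), although within 50 bp both the GAS share (3.03% against 3.20%) and the ISRE share (1.82% against 2.00%) were below those of the whole list. Within 100 bp, a STAT6 motif lay at 11 (6.67% against 6.81%), an NF-kB motif at 11 (6.67% against 5.55%) and a PU.1 motif at 16 (9.70% against 9.08%). AP-1 motifs were fewer, at 20 summits (12.1% against 19.4%). No summit had an AICE, searched in the spaced form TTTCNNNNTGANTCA (0.279% of all summits) and the joined form GAAATGANTCA (0.45%). Both strands were searched, and an EICE and an ISRE can share bases, as at Irf2 and Psme1, the only summits with both. In all, 95 of the 165 summits had none of the 9 motifs, and the share of all summits with none was not computed.

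The shares of the Irf loci and of the whole list lay farther apart, in percentage points, at start site summits than at distal ones. This held for every motif with a match at the Irf loci, though barely for STAT6. Of the 67 summits within 1000 bp of a start site, 4 had an ISRE (5.97%, against 2.78% of all such summits), 4 an EICE (5.97% against 2.84%), 7 a GAS (10.4% against 4.75%) and 7 an NF-kB motif (10.4% against 5.08%), while 2 had an AP-1 motif (2.99% against 9.35%). The PU.1 share was 7.46% against 5.08% and the STAT6 share 2.99% against 4.4%. At the 98 distal summits the ISRE share was 3.06% against 3.99% and the EICE share 5.10% against 5.35%. There the GAS share was 7.14% against 7.02%, the NF-kB share 4.08% against 5.75% and the AP-1 share 18.4% against 23.6%. The distal PU.1 share was 11.2% against 10.7%, and the distal STAT6 share was above that of the whole list, at 9.18% against 7.81%. The 9 summits with an EICE had a median score of 1594, and 8 of them scored at or above the median of the whole list, as did 53.8% of all summits with an EICE. For the ISRE these were 4 of 7 summits and 48.0%. Not all of the 67 start site summits belong to the Irf genes, since 28 lay within 1000 bp of a start site of the Irf gene itself. These 28 included 2 of the 4 with an ISRE, 3 of the 4 with an EICE, 4 of the 7 with a GAS and 3 of the 7 with an NF-kB motif. With so few summits, these shares are a description only.

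**Figure D3:**
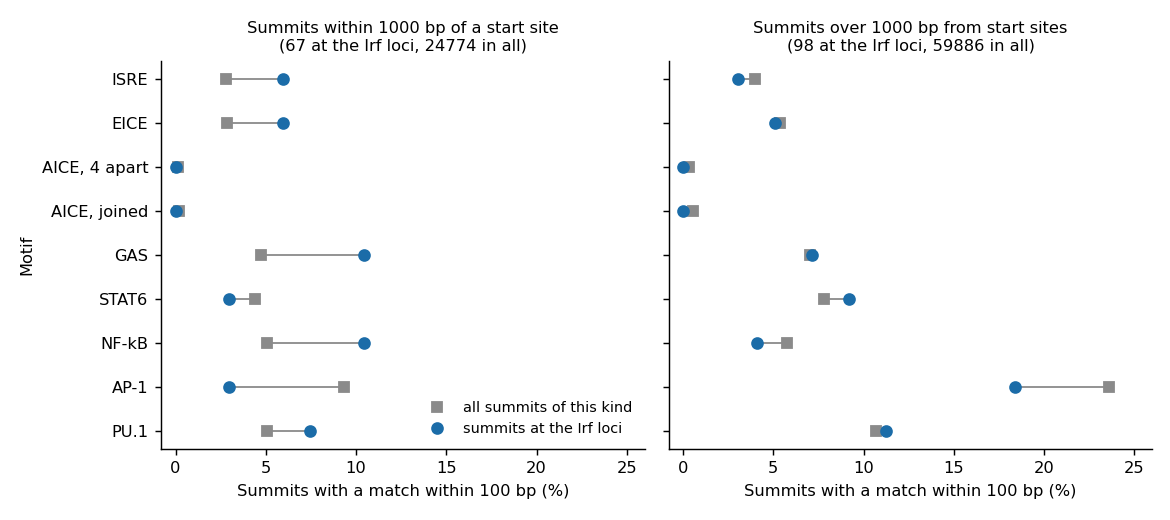
Share of summits with each motif within 100 bp (x axis, %) for the motifs searched (y axis), at the Irf loci (blue) and in the whole list (grey), for summits within 1000 bp of a start site (left) and farther away (right). On the left the GAS and NF-kB points of the Irf loci lie at 10.4%, where the whole list lies at 4.75% and 5.08%, and the ISRE and EICE points at 5.97%, where it lies at 2.78% and 2.84%. The AP-1 point on the left lies at 2.99%, where the whole list lies at 9.35%.

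The promoters themselves were compared in the RefSeq table (GRCm38.p6), which matched 8 of 8 genes with 11 promoter windows of 300 bp. Of these, 10 overlapped a reference peak. The exception was the inner Irf8 promoter at chr8:120738389-120738688. The share of all promoters that overlap a reference peak was not computed. The median GC content was 61.0%, against 52.7% over 32851 promoters. The observed over expected CpG ratio, a measure of CpG islands, was highest at Irf8 (1.03) and the inner Irf1 window (1.02) and lowest at the inner Irf9 window (0.0483), Irf7 (0.310) and the inner Irf8 window (0.357). The median was 0.673 over the 11 windows and 0.384 over all promoters. A GAS was in the promoters of Irf1, Irf2 and Irf8 (8.30% of all promoters had one), an NF-kB motif in those of Irf1 and Irf2 (4.51%), and an ISRE (3.44%) and an EICE (2.72%) in that of Irf2. A STAT6 motif was in that of Irf9 (6.95%). The promoters of Irf3, Irf4, Irf5 and Irf7 had none of the 9 motifs, nor had the inner windows of Irf1, Irf8 and Irf9. How many of all promoters had none was not computed.

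The genes around the family were described through a list of 60 pathway genes. A start site peak was present at 57 of them, against the 56.5% of all coding genes given above, and the median count of extended regions was 10, equal to that of the 8 Irf genes. Of the ligands, Ifnb1 had a start site peak with a score of 685 and the most extended regions (7), while Ifna4 and Ifng had none at the start site. All 5 receptor genes had one, with a median of 13 extended regions, from 10 at Ifngr2 to 15 at Ifnar1 and Ifnar2. All 7 sensors had one, with Tlr3 lowest at 3 extended regions and Tlr9 highest at 16. All 7 adaptors, with 7 regions at Myd88 and Traf6 and 12 at Ticam2, and all 9 kinases, with 6 at Irak1 and Irak4 and 13 at Jak1 and Tyk2, had a start site peak. Of the 10 partner genes Batf alone lacked one, although its 16 extended regions were the most of that group and Crebbp had the fewest, 4. The Stat2 gene, whose product joins IRF9, scored 1890 at its start site, and Spi1, which encodes PU.1, scored 1838. The corepressors ran from 8 regions at Irf2bp1 to 12 at Irf2bpl. All 16 target genes had a start site peak, with the fewest regions at Gbp2 and Socs1 (7) and the most at Tap1 (18).

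**Figure D4:**
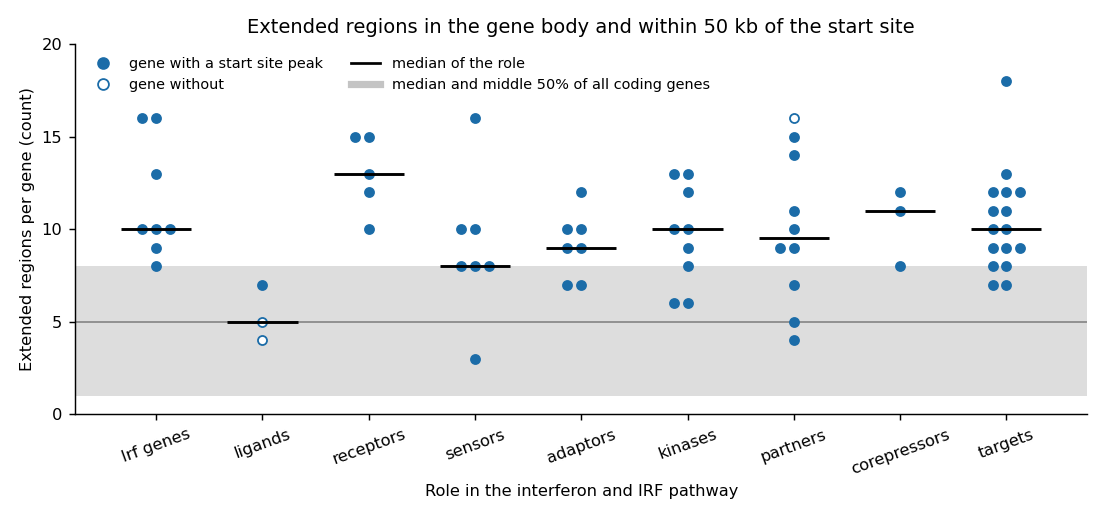
Extended regions per gene (y axis, count) for the 8 Irf genes and the 60 pathway genes by role (x axis), with filled points for genes with a start site peak, open points for those without, black bars at the medians and, in grey, the median (5) and middle 50% (1 to 8) of all coding genes. The 3 open points are Ifna4, Ifng and Batf, and the Irf genes run from 8 to 16.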

How the data were processed

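Per the study's methods and the submitters' processing notes, the authors trimmed single-end reads (Trimmomatic 0.39), aligned them to mm10 with ShortStack, filtered them (SAMtools 1.9) and called peaks (MACS2 2.2.6) with duplicates kept. By the study's methods, the reference set kept only peaks that passed a strict q-value cutoff and overlapped between replicates. A gene without a start site peak is thus one where no peak passed this filter. The sources name no shift of reads to the insertion site of Tn5. Summits may therefore be offset from it, and a score can include PCR copies. The deposited lists give positions and, for summits, a score in the fifth column, whose scale is not given in the sources used here. The fifth column is 0 throughout the other lists. No library depth, and thus no precision, could be derived, and 0 columns belonged to other samples.

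Lists were intersected with GENCODE M21 genes and motifs searched in GRCm38.p6 (Python 3.11.15, NumPy 2.4.6), after both steps were tested on simulated data. All entries lay inside the 21 chromosomes. Percentiles count ties as 0.5. Coordinates count from 1. The genes and lists were chosen with earlier results of these data known. Named are all 8 genes, at each locus the start site peak, the best distal summit, the widest peak and the region with the most summits, and neighbours that share the start site peak or hold the best summit. Of the pathway genes, those without a start site peak and those with the most and fewest regions per role are named. Some listed items are not reported here. Other features were chosen after their values were seen. The marker genes served only to check the cell type. Alternatives were windows of 20000 and 100000 bp, gene bodies, nearest regions, start site distances of 500 and 2500 bp, motif windows of 50 and 200 bp and only the summits that reach the median score.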

Additional observations from a re-analysis of the deposited data

How the results depend on the processing

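The lists are pooled, so no replicate could be left out. No paired analysis was possible because the lists carry no column per library. The total of 92 extended regions depends on the window. It was 52 within 20000 bp, 152 within 100000 bp, 29 in gene bodies alone and 49 with only regions nearest to the Irf gene, but 63 with only the summits that reach the median score. The start site peaks (8 of 8) were the same at 500 and 2500 bp, with coding transcripts alone and with only those summits. Of the pathway genes 57, 58 and 51 had one at 500 bp, at 2500 bp and with such summits. The ISRE share fell from 4.24% to 1.82% with a window of 50 bp, where the share of all summits was 2.00%, and was 7.27% with 200 bp. The position against the whole list also turned for the ISRE with the best summit per region (3.37% against 3.73%), for STAT6 with 200 bp (12.7% against 11.8%) and with summits that reach the median score (7.61% against 6.44%), and for PU.1 in the same settings (10.3% against 10.5% and 8.70% against 10.1%). Of 72 further recomputed values for single genes or motifs, 34 moved, that is, a count by more than 1.5 times or a share beyond the 95% binomial interval (Wilson) of its main value, which covers counting error only.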
